A study of Mus musculus with 8 samples.

Results

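The genes described here make cholesterol, take it up, move it and esterify it, or control these steps through the transcription factor SREBP2. They were taken from a list of 31 gene symbols, with older and newer names of the same gene counted as 1, and each gene was read from the probe set that names it alone, or from the one with the highest mean where there were several. Of the 31 genes, 28 were measured in this way, out of 19938 genes in the series, and the only measured value in the rule is the mean level that picks a gene's probe set. Acat2, Soat1 and Soat2 had no probe set of their own in the annotation used and were not analysed here, so the first condensation of acetyl-CoA units and the esterification of cholesterol inside cells are not covered. Of the 19 synthesis enzymes on the list, 18 were measured.

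The study measured RNA of mouse liver on 8 Affymetrix Mouse Gene 1.0 ST arrays. There were 4 arrays of mice given hydrogen water, a drink enriched in dissolved hydrogen gas, which started at 7 weeks of age and lasted 4 weeks, and 4 arrays of control mice. The labels give an age at the start of 7 weeks for all 8 mice, controls included. All 8 mice were of the C57BL6 strain and were fasted for 17 h before they were killed, so there was no fed group. The drink of the control mice and the sex of the animals are not given in the labels, the treatment text is the same for all 8 samples, and the groups were taken from the titles and descriptions. Each array is named here by its group and the number in its title, and values per array are given in the order of those numbers. All levels are the authors' log2 signals, so a difference of 1 is a doubling.

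Cholesterol is built in the mevalonate pathway: acetyl-CoA units are joined and reduced to mevalonate, mevalonate is phosphorylated and decarboxylated to isoprene units, these are joined to squalene, and squalene is oxidised, closed to lanosterol and trimmed to cholesterol. SREBP2 is held in the endoplasmic reticulum by SCAP and INSIG proteins when membranes are rich in cholesterol. When they are poor in it, SCAP carries SREBP2 to the Golgi, where it is cut, and its released part enters the nucleus and switches on most genes of the pathway, usually together with the promoter-binding factors NF-Y and Sp1. Cholesterol taken up as lipoprotein esters is freed in lysosomes and handed to other membranes by NPC proteins. In the liver, which both makes and clears cholesterol, the pathway is known to be less active in fasting than after feeding.

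RefSeq promoter entries, 250 bases before to 50 bases after a transcript's start in mouse build GRCm38.p6, matched 23 of the 28 genes and 15 of the 18 synthesis enzymes. Both strands were searched for CCAAT (the NF-Y motif), GGGCGG (an Sp1 motif) and TCACNCCAC (a loose form of the sterol regulatory element that SREBP2 binds). The promoters printed here are those of Pmvk, Sc5d, Dhcr7 and Idi1, the 4 synthesis enzymes whose signal followed the mean of the other enzymes most closely among those with an entry. Pmvk and Dhcr7 have several entries, of which the one with CCAAT is shown. Hmgcs1 is shown as well, chosen after its sequence was seen, because it alone held a match to the sterol element. Capitals mark CCAAT, or ATTGG where the motif lies on the other strand, and in Hmgcs1 the sterol element match TCACCCCAC, which starts 137 bases upstream of the start. The matches to the 3 motifs in the Hmgcs1 window did not overlap each other.
Hmgcs1, chr13:119690101-119690400, plus strand: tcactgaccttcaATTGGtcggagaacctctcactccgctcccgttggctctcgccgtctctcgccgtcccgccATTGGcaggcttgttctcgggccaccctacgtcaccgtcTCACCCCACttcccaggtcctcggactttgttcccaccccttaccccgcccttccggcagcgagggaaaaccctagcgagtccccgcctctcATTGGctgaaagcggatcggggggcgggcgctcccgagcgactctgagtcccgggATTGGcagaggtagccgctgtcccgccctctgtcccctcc
Pmvk, chr3:89454291-89454590, plus strand: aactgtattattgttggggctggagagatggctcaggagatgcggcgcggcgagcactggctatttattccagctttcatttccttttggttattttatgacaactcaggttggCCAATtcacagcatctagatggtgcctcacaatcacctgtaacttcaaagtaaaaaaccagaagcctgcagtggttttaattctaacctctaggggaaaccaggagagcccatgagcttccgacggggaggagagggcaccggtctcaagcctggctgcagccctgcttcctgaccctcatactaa
Idi1, chr13:8885356-8885655, plus strand: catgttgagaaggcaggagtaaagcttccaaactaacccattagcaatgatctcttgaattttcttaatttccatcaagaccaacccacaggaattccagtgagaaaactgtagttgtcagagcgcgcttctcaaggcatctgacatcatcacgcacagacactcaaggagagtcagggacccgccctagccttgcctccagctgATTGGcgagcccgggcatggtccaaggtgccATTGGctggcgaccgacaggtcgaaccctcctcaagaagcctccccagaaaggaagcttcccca
Sc5d, chr9:42264251-42264550, minus strand: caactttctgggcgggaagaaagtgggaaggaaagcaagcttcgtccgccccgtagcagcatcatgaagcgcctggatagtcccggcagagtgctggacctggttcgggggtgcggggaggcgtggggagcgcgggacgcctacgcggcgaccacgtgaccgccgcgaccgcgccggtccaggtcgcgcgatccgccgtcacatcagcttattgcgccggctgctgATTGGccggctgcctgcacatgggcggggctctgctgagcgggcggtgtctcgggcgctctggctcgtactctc
Dhcr7, chr7:143829964-143830263, plus strand: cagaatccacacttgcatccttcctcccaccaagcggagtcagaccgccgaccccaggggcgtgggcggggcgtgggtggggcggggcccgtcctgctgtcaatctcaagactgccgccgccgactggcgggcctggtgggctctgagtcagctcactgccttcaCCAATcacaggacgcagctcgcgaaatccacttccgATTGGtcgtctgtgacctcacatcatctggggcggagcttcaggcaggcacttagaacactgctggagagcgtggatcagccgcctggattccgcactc

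CCAAT stood in at least 1 promoter entry of 15 of 15 synthesis enzymes and of 22 of 23 listed genes, against 41.1% of all genes in the RefSeq table and 41.7% of the 15614 array genes with an entry. GGGCGG stood in 13 of 15 synthesis enzymes and 19 of 23 listed genes, against 38.2% of all genes in the table, 52.9% of the array genes with an entry and 69.4% of those whose mean signal lay above the median of tested genes. TCACNCCAC stood in 1 of 15 synthesis enzymes, against 1.4% of all genes in the table. Counted over the 32851 promoter entries instead of over genes, the shares were 37.4% for CCAAT, 35.7% for GGGCGG and 1.2% for TCACNCCAC. These are letter matches and no measure of binding, and no match says only that the letters are not in the window.

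The signals of the arrays were alike. Array medians over all probe sets lay between 5.27 and 5.37, and any pair of arrays correlated at 0.988 to 0.995 across the genes tested. The array least like the rest of its group was control 3, with a mean correlation of 0.989 to the other controls and the lowest weight, 0.424, when limma weighted the arrays by their fit. Since it was also the lowest array for many of the genes described here, differences without it are given for the genes whose value changed sign or moved by over 1.5 times. Hepatocyte markers matched the labelled tissue: 11 of 12 were measured and all 11 had a mean log2 signal above 5.87, the median of tested genes. Precision is limited by having 4 arrays a group. The limma p-values set a gene's difference against its spread within the groups of these 8 samples, moderated by the spread over all genes.

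None of the 28 cholesterol genes differed between hydrogen water and control livers past the test used: none passed an adjusted p of 0.05 in limma, with p-values adjusted by Benjamini-Hochberg over all 19938 genes, and the lowest adjusted p among them was 0.638. Across all genes 0% passed, so the count of 0 is also that of the whole array. At an unadjusted p under 0.05 stood 2 of the 28, Hsd17b7 and Srebf2, both higher with hydrogen water. That is 7.14% of them, against 7.17% of all genes tested, so the share was that of the array as a whole. In none of the 28 did the groups of 4 arrays lie apart without overlap, against 3.76% of all genes.

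By sign, 15 of the 28 genes were higher with hydrogen water and 13 lower, and 48.7% of all genes were higher. The median difference was 0.01 on the log2 scale, against -0.00 over all genes, and the differences ranged from -0.33 for Cyp51 to 0.40 for Hsd17b7. The median size of a difference regardless of sign was 0.12, smaller than the median standard error of 0.14, and over all genes it was 0.10. The sign count rested on control 3: without that array 8 of 28 genes were higher with hydrogen water, and the median difference was -0.099. A gene's highest and lowest array lay a median of 0.64 apart on the log2 scale.

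**Figure D1:**
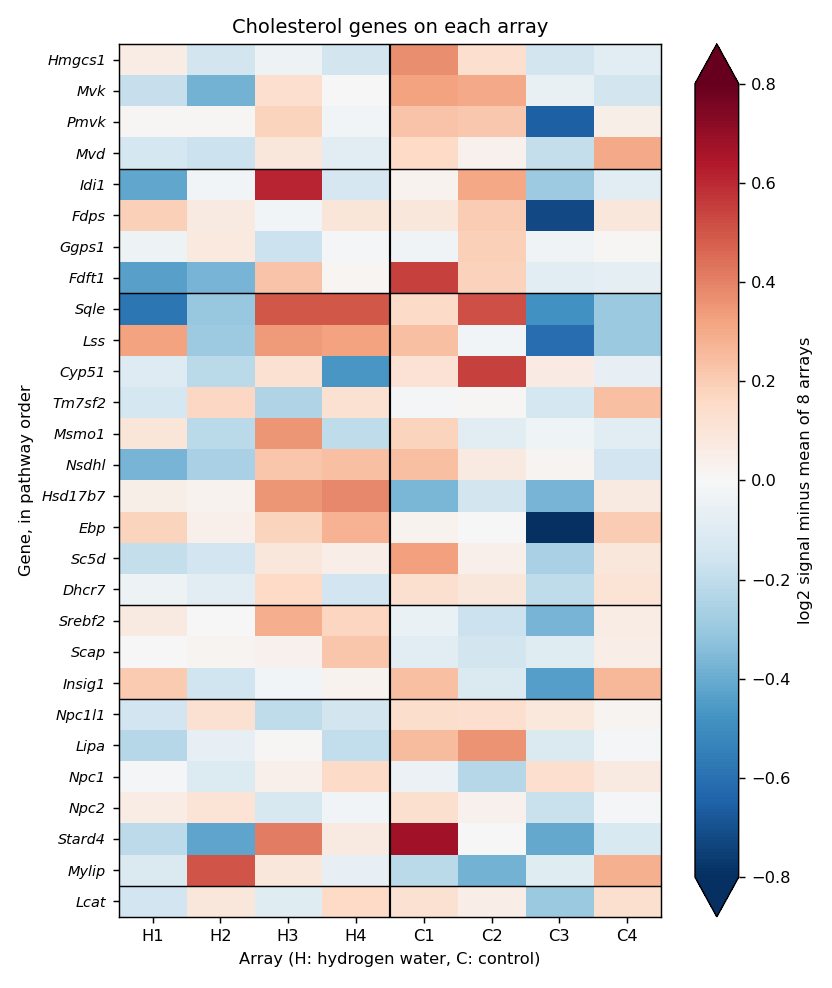
Each row is 1 gene in pathway order, each column 1 array (H, hydrogen water; C, control), and the colour gives the log2 signal minus the gene's mean over the 8 arrays; horizontal lines part the mevalonate steps, isoprenoid steps, squalene to sterol steps, SREBP2 control, uptake and movement, and esterification. Control 3 is the lowest array for 12 of the 28 genes, with Ebp, Fdps and Pmvk furthest below their means, while neither group of 4 columns has 1 colour throughout.

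The heat map of signals shows single columns that differ rather than one group against the other. Control 3 was the lowest array for 12 of the 28 genes, or 42.9%, against 18.4% of all genes and 26.3% of genes above the median level. The mean over the 18 synthesis enzymes, each centred on its own mean, was -0.10, -0.12, 0.17 and 0.04 with hydrogen water, against 0.15, 0.14, -0.28 and -0.01 in controls. The hydrogen water arrays lay nearly inside the span of the controls, which held the lowest array and a pair with means close to that of hydrogen water 3. Of these 18 enzymes, 8 were higher with hydrogen water and 10 lower, with a median difference of -0.06.

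The early steps that build mevalonate and its phosphates held 4 measured genes, of which 1 was higher with hydrogen water and 3 lower, with a median difference of -0.15. Hmgcs1 encodes the cytosolic synthase that makes HMG-CoA, the substrate from which mevalonate is formed. On the log2 scale it had 9.19, 8.98, 9.09 and 8.98 with hydrogen water, against 9.50, 9.26, 8.98 and 9.04 in controls. Control 1 was the highest array and the groups overlapped, with a difference of -0.14 (95% interval -0.41 to 0.14), or -0.21 without control 3, and a limma adjusted p of 0.874.

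Mvk encodes mevalonate kinase, which adds the first phosphate to mevalonate. It had 6.89, 6.70, 7.21 and 7.08 log2 signal with hydrogen water, against 7.4, 7.38, 7.02 and 6.93 in controls. Controls 1 and 2 stood above all hydrogen water arrays and controls 3 and 4 within their range, and the difference of -0.21 (95% interval -0.53 to 0.11) had a limma adjusted p of 0.81. Pmvk encodes phosphomevalonate kinase, which adds the next phosphate. The 4 hydrogen water arrays had log2 signals of 7.34, 7.34, 7.51 and 7.31, against 7.56, 7.55, 6.68 and 7.38 in controls. A single array, control 3, lay far below the rest, and the difference was 0.08 with all arrays (95% interval -0.30 to 0.46) and -0.12 without that array. Mvd encodes the decarboxylase that turns mevalonate diphosphate into the first isoprene unit. It had 5.95, 5.92, 6.18 and 6.0 with hydrogen water, against 6.25, 6.12, 5.90 and 6.39 log2 signal in controls, so the groups overlapped and the difference was -0.15 (95% interval -0.42 to 0.11), or -0.24 without control 3.

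Among the 4 genes of the isoprenoid steps, hydrogen water livers had the higher mean for 2 and the lower mean for 2, and the median difference was -0.03. Idi1 encodes the isomerase that interconverts the isoprene units. Its log2 signals were 7.62, 8.01, 8.64 and 7.90 with hydrogen water, against 8.06, 8.34, 7.74 and 7.95 in controls, so both its highest and its lowest array were hydrogen water arrays. The difference was 0.02 (95% interval -0.41 to 0.45), or -0.08 without control 3, and a further Idi1 probe set gave 0.08. Fdps encodes farnesyl diphosphate synthase, which joins the units to the branch point of the pathway. Its signals were 8.38, 8.26, 8.17 and 8.29 with hydrogen water, against 8.28, 8.39, 7.47 and 8.28 on the log2 scale in controls. The 7 arrays other than control 3 lay close together, and the difference was 0.17 with all arrays (95% interval -0.21 to 0.56) and -0.04 without control 3.

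Ggps1 encodes the synthase of geranylgeranyl diphosphate, which leaves the sterol route and is used to anchor proteins in membranes. Its log2 signals spanned 6.88 to 7.13 with hydrogen water, against 7.02 to 7.24 in controls, a difference of -0.07 (95% interval -0.29 to 0.15). Fdft1 encodes squalene synthase, the first enzyme of the route that leads only to sterols. It had 9.31, 9.37, 9.97 and 9.76 with hydrogen water, against 10.29, 9.93, 9.66 and 9.67 log2 signal in controls. Hydrogen water 1 and 2 lay below all 4 controls, hydrogen water 3 and 4 among them, and control 1 was the highest. The difference was -0.29 (SE 0.18, 95% interval -0.67 to 0.10, limma adjusted p = 0.782), and the other Fdft1 probe set gave -0.39.

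From squalene to cholesterol, 10 genes were measured, and hydrogen water livers had the higher mean for 5 and the lower mean for 5 (median difference -0.02). Hsd17b7 encodes the reductase that acts on the ketone left when a methyl group is removed from the sterol ring. Its log2 signals were 10.25, 10.23, 10.56 and 10.59 with hydrogen water, against 9.84, 10.06, 9.83 and 10.28 in controls. All hydrogen water arrays except 1 and 2 stood above every control, and these 2 lay just under control 4. The difference was 0.40 (SE 0.13, 95% interval 0.11 to 0.70), with a standard deviation of 0.19 among hydrogen water arrays and 0.21 among controls. This was the lowest p among the 28 genes, 0.0111 unadjusted and 0.638 after adjustment over all genes in limma, so the gene did not pass. Without control 3 the difference was 0.35.

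Cyp51 encodes lanosterol demethylase, the target of azole drugs in fungi. It had 7.78, 7.67, 8.01 and 7.42 log2 signal with hydrogen water, against 8.0, 8.43, 7.95 and 7.82 in controls. Control 2 was the highest array and hydrogen water 4 the lowest, while hydrogen water 3 lay at the level of control 1. The means were 7.72 ± 0.24 with hydrogen water and 8.05 ± 0.26 in controls (SD, n = 4 each), with a difference of -0.33 and a limma adjusted p of 0.697. Msmo1 and Nsdhl encode the oxidase and the dehydrogenase that act before Hsd17b7 in removing methyl groups. The difference of Msmo1 was 0.02 (95% interval -0.28 to 0.32), or 0.01 without control 3, and that of Nsdhl was -0.09 (95% interval -0.42 to 0.25), so the 3 enzymes that act one after another did not share a sign.

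Sqle encodes squalene epoxidase, which adds oxygen to squalene and is known as a controlled step of the pathway. The log2 signals of Sqle were 5.42, 5.69, 6.49 and 6.49 with hydrogen water, against 6.15, 6.51, 5.51 and 5.70 in controls. Each group held a pair of high and a pair of low arrays, and the difference was 0.05 (95% interval -0.53 to 0.64), or -0.10 without control 3. Lss encodes lanosterol synthase, which closes the rings. It had 8.0, 7.39, 8.02 and 8.0 with hydrogen water, against 7.92, 7.66, 7.07 and 7.38 log2 signal in controls. Hydrogen water 1, 3 and 4 lay above all controls and hydrogen water 2 lay near the lower ones, and the difference was 0.34 (95% interval -0.07 to 0.76, limma adjusted p = 0.747), or 0.20 without control 3.

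Ebp encodes the sterol isomerase that moves a double bond in the ring. Ebp had log2 signals of 11.24, 11.10, 11.24 and 11.34 with hydrogen water, against 11.09, 11.06, 10.14 and 11.26 in controls. Control 3 lay far below the other 7 arrays. The means were 11.23 ± 0.10 with hydrogen water and 10.89 ± 0.50 in controls (SD, n = 4 each), and the difference was 0.34 with all arrays and 0.10 without control 3. Tm7sf2 encodes a sterol reductase that acts after Cyp51, Sc5d a desaturase and Dhcr7 the reductase that yields cholesterol. Tm7sf2 spanned 10.02 to 10.43 with hydrogen water, against 10.12 to 10.50 in controls, with a difference of -0.05 on the log2 scale, or -0.10 without control 3. Sc5d had 10.47, 10.51, 10.75 and 10.71 log2 signal with hydrogen water, against 10.99, 10.70, 10.40 and 10.75 in controls, with a difference of -0.10 (95% interval -0.38 to 0.19), or -0.20 without control 3. Dhcr7 had 8.38, 8.33, 8.58 and 8.27 log2 signal with hydrogen water, against 8.55, 8.51, 8.22 and 8.53 in controls, with a difference of -0.06 (95% interval -0.31 to 0.18). Control 3 was the one low control for Dhcr7, and the difference was -0.14 without it.

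**Figure D2:**
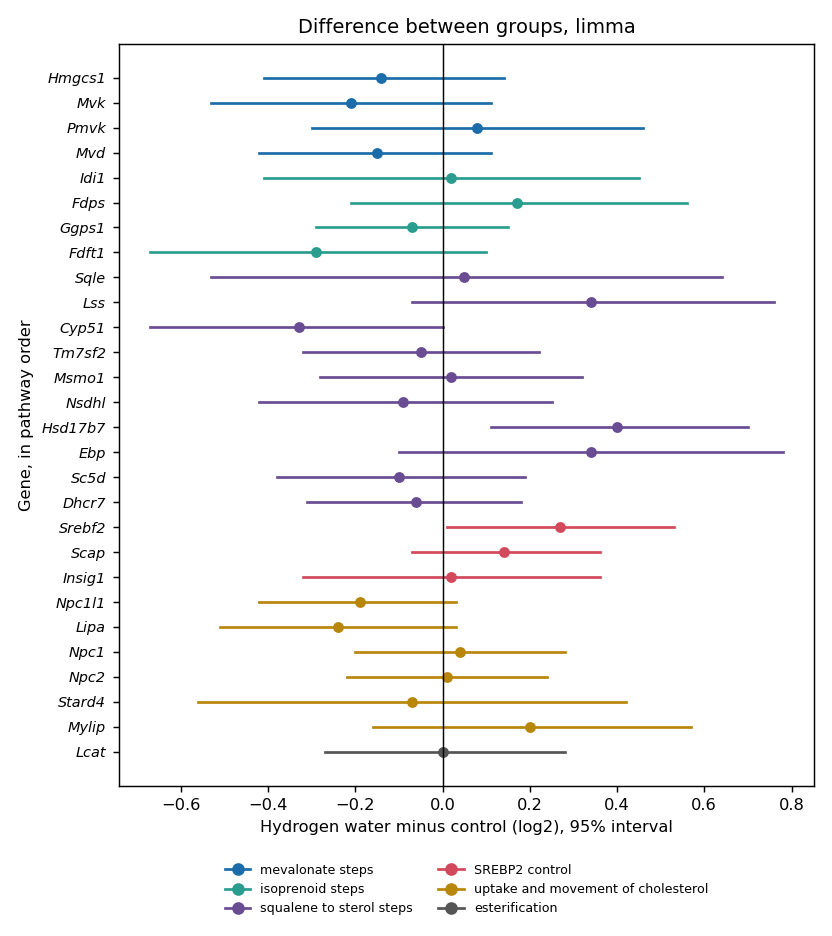
Points give the limma difference, hydrogen water minus control on the log2 scale, and bars its 95% interval for each of the 28 genes in pathway order from top to bottom. The intervals of all genes but Hsd17b7 (0.11 to 0.70) and Srebf2 (0.01 to 0.53) include 0 or reach it.

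The plot of differences puts genes of either sign next to each other along the route. The intervals also give the size that could have been missed: that of Sqle allows a difference of 0.64 higher, and that of Fdft1 one of -0.67. A gene that did not pass was therefore not shown to be at the same level in both groups.

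All 3 SREBP2 control genes had a higher mean with hydrogen water, against 48.7% of all genes, with a median difference of 0.14, and none of them passed the test. Without control 3 this held for Srebf2 and Scap but not for Insig1. Srebf2 encodes SREBP2 itself and is known to be switched on by its own product. For Srebf2 the log2 signals were 8.32, 8.25, 8.54 and 8.42 with hydrogen water, against 8.20, 8.08, 7.88 and 8.31 in controls. Control 4 lay level with the lower hydrogen water arrays, and control 3 was again the lowest array. The means were 8.38 ± 0.13 with hydrogen water and 8.12 ± 0.19 in controls (SD, n = 4 each), a difference of 0.27 (SE 0.12, 95% interval 0.01 to 0.53) with a limma p of 0.0425 unadjusted and 0.687 adjusted. The difference was 0.19 without control 3, and 0.13 when a probe set that names Srebf2 together with another gene stood for it.

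Scap encodes the escort that carries SREBP2 to the Golgi. It had 10.25, 10.27, 10.28 and 10.47 log2 signal with hydrogen water, against 10.16, 10.10, 10.15 and 10.30 in controls. Hydrogen water 4 was the highest array and control 4 the next, and the difference was 0.14 (95% interval -0.07 to 0.36, limma adjusted p = 0.81). Insig1 encodes the anchor that retains SCAP, and it is known as a sensitive target of SREBP2. Its log2 signals were 10.35, 9.98, 10.12 and 10.17 with hydrogen water, against 10.38, 10.03, 9.70 and 10.41 in controls. Both groups held high and low arrays, and the difference was 0.02 (95% interval -0.32 to 0.36), or -0.12 without control 3.

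**Figure D3:**
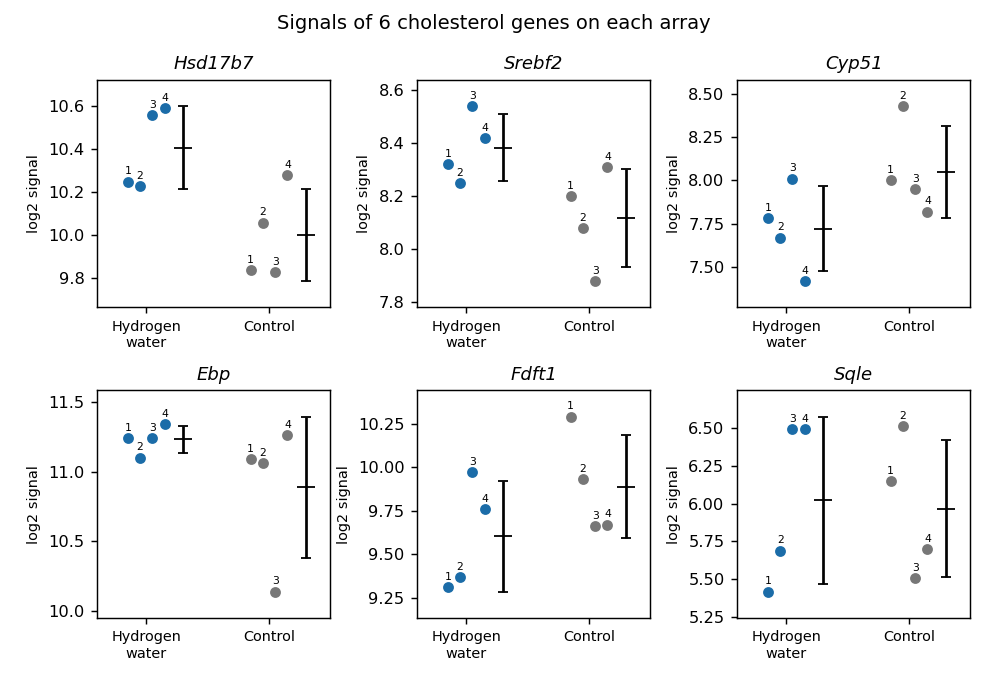
Each panel shows the log2 signal of 1 gene on the 4 hydrogen water arrays (left) and the 4 control arrays (right), numbered by replicate, with the mean and SD of each group; the vertical axes differ and do not start at 0. Hsd17b7 and Srebf2 average higher with hydrogen water, Cyp51 and Fdft1 lower, and control 3 pulls down the control mean of Ebp, but the groups overlap in all 6 panels.

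In the panels for single genes the spread within a group can be set against the step between groups. For Srebf2 the difference of 0.27 stands beside standard deviations of 0.13 among hydrogen water arrays and 0.19 among controls. Sqle has the widest spread of the 6 among hydrogen water arrays, Ebp the widest among controls, and the mean of Sqle is nearly the same in both groups.

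Of the 6 genes for uptake and movement of cholesterol, 3 were higher and 3 lower with hydrogen water, with a median difference of -0.03. Lipa encodes lysosomal acid lipase, which frees cholesterol from the esters of lipoproteins taken up by the cell. Lipa had log2 signals of 11.76, 11.92, 12.00 and 11.79 with hydrogen water, against 12.24, 12.35, 11.87 and 11.97 in controls. Controls 1 and 2 stood above all hydrogen water arrays and controls 3 and 4 among them, and the difference was -0.24 (95% interval -0.51 to 0.03, limma adjusted p = 0.731). Npc1l1 encodes the sterol transporter of the gut's brush border, which in humans is also made in hepatocytes. It had 5.41, 5.69, 5.36 and 5.42 with hydrogen water, against 5.71, 5.70, 5.65 and 5.59 log2 signal in controls. Only hydrogen water 2 reached the level of the controls, and the difference was -0.19 (95% interval -0.42 to 0.03, limma adjusted p = 0.737). All of its signals lay below 5.87, the median of tested genes, so Npc1l1 was read at a low level.

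Npc1 and Npc2 encode the membrane protein and the soluble partner that pass free cholesterol out of lysosomes. Npc1 spanned 11.45 to 11.71 log2 signal with hydrogen water, against 11.33 to 11.69 in controls, a difference of 0.04 (0.09 without control 3), and Npc2 spanned 8.47 to 8.71 with hydrogen water, against 8.42 to 8.73 in controls, a difference of 0.01 (-0.05 without control 3). Mylip encodes the ubiquitin ligase IDOL, which sends lipoprotein receptors to degradation. It had 8.02, 8.64, 8.23 and 8.07 log2 signal with hydrogen water, against 7.92, 7.76, 8.04 and 8.42 in controls, with a difference of 0.20 (95% interval -0.16 to 0.57). Stard4 encodes a carrier of sterols through the cytosol and is known as an SREBP2 target. Its log2 signals were 6.86, 6.65, 7.48 and 7.14 with hydrogen water, against 7.74, 7.07, 6.66 and 6.95 in controls, so control 1 and hydrogen water 3 were high and hydrogen water 2 and control 3 low. Its difference was -0.07 (95% interval -0.56 to 0.42), or -0.22 without control 3. Lcat, the liver enzyme that esterifies cholesterol in plasma lipoproteins, spanned 12.78 to 13.09 with hydrogen water, against 12.63 to 13.06 in controls, with a log2 difference of 0.00 (95% interval -0.27 to 0.28), or -0.10 without control 3.

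Although the groups did not part, the synthesis enzymes varied together from mouse to mouse. Over the 8 arrays the median Pearson correlation between pairs of the 18 enzymes was 0.35 (153 pairs), and 80.4% of pairs were above 0. Between all pairs of genes on the array the median was 0.00 with 50% above 0, and between genes above the median level it was 0.04 with 52.9% above 0. Pairs at 0.7 or more made up 11.1% of enzyme pairs, against 3.8% of all pairs and 6.1% of pairs of genes above the median level. With each group's mean subtracted, the median between enzymes was 0.41. These are descriptions over the same 8 arrays, which share extraction, hybridisation and scaling. A large part of the median rested on 1 array: without control 3 it was 0.20, and 61.4% of enzyme pairs were above 0. Between all pairs of genes without control 3 the median was 0.00, with 50% above 0. Pairs at 0.7 or more then made up 13.1% of enzyme pairs, against 5.2% of all pairs.

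**Figure D4:**
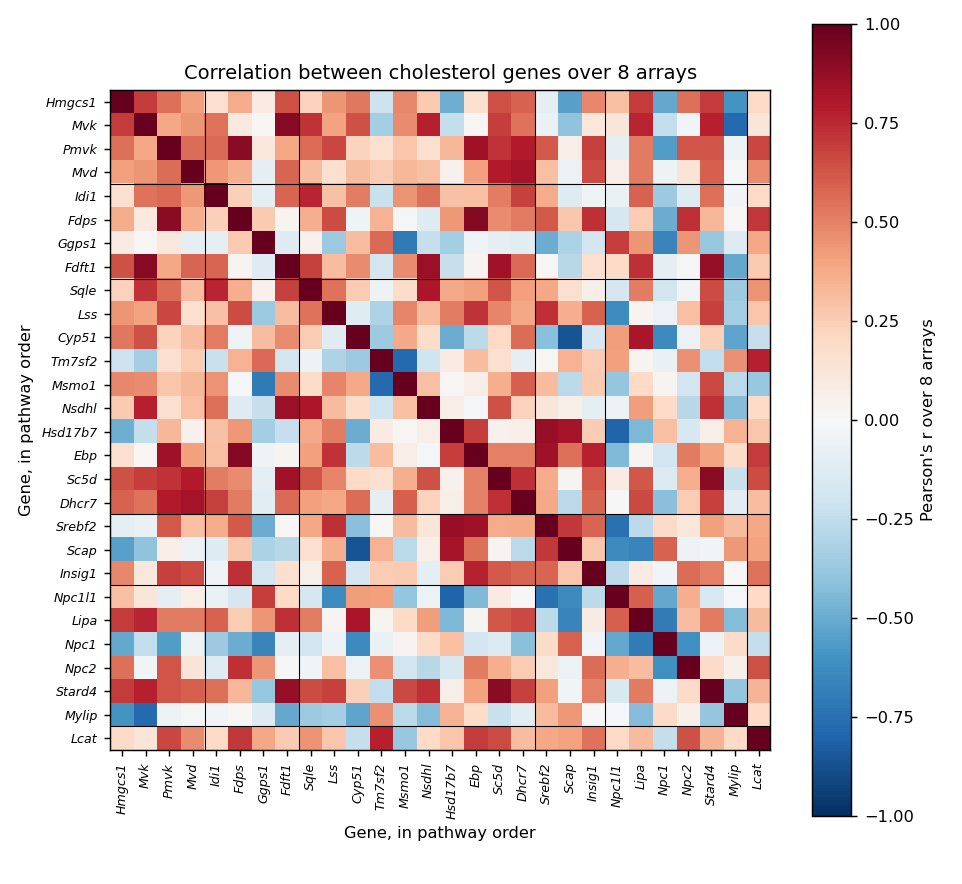
The colour of each cell gives Pearson's r over the 8 arrays between the signals of a pair of genes, both axes in pathway order, with lines between the groups of steps. Most cells among the synthesis enzymes are above 0 (123 of 153 pairs), Ggps1, Tm7sf2 and Hsd17b7 have many pale or blue cells, and the cells of Srebf2 with Hsd17b7 and Ebp and of Hsd17b7 with Scap are dark red.

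The correlation map has several blocks. The strongest pair among the synthesis enzymes was Fdps with Ebp at r = 0.92, and Pmvk stood at 0.90 with Fdps and 0.85 with Ebp. These 3 pairs rested on control 3, as they were -0.27, -0.11 and -0.62 without it. Another block did not: Mvk with Fdft1 was 0.91 with and without control 3, Fdft1 with Nsdhl was 0.86 with it and 0.87 without it, and Fdft1 with Sc5d was 0.84 with it and 0.95 without it. Sqle with Nsdhl was 0.81 with control 3 and 0.91 without it. Stard4 lay in this block although it is a carrier and no enzyme of synthesis, with r = 0.87 against Fdft1 and 0.90 against Sc5d, or 0.92 and 0.88 without control 3.

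A further block joined the transcription factor to some of the late enzymes. Srebf2 had r = 0.87 with Hsd17b7 and 0.85 with Ebp, and 0.84 and 0.81 without control 3. With Lss it had 0.73, or 0.47 without control 3. With the remaining enzymes from squalene to cholesterol, Srebf2 had r between -0.42 (Cyp51) and 0.39 (Sqle) over the 8 arrays. Hsd17b7 had 0.83 with Scap, or 0.81 without control 3. Some pairs ran opposite ways: Cyp51 with Scap was -0.86, Hsd17b7 with Npc1l1 -0.80, and Tm7sf2 with Msmo1 -0.78. Without control 3 these 3 were -0.89, -0.82 and -0.86. Cyp51 and Lipa, both lower on average with hydrogen water, had r = 0.82, or 0.87 without control 3. Most of the pairs named are extremes picked from all pairs of the 28 genes. Group means were not subtracted for single pairs, so each r includes any difference between the groups.

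Each gene was then set against the mean of the synthesis enzymes other than itself. The closest were Pmvk (r = 0.85), Stard4 (0.85), Sc5d (0.84), Dhcr7 (0.78) and Sqle (0.77), so 5 of the 28 reached 0.7, against 5.69% of all genes set against the mean of the synthesis enzymes. In exact permutation tests over all 40320 pairings, two-sided, Pmvk had p = 0.00243 for Pearson's r and p = 0.0368 for Spearman's rho of 0.76, and Stard4 had p = 0.00702 for r and p = 0.00223 for rho of 0.93. With 28 such correlations computed, the lowest exact permutation p after Benjamini-Hochberg adjustment was 0.0681 for r, at Pmvk, and 0.0625 for rho, at Stard4, so none passed 0.05. Leaving out the 2 arrays farthest from the median of the mean, hydrogen water 3 and control 3, gave r = 0.79 for Pmvk, 0.82 for Stard4, 0.80 for Sc5d and 0.53 for Dhcr7. For Sqle, control 1 and control 3 were left out and r was 0.82.

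**Figure D5:**
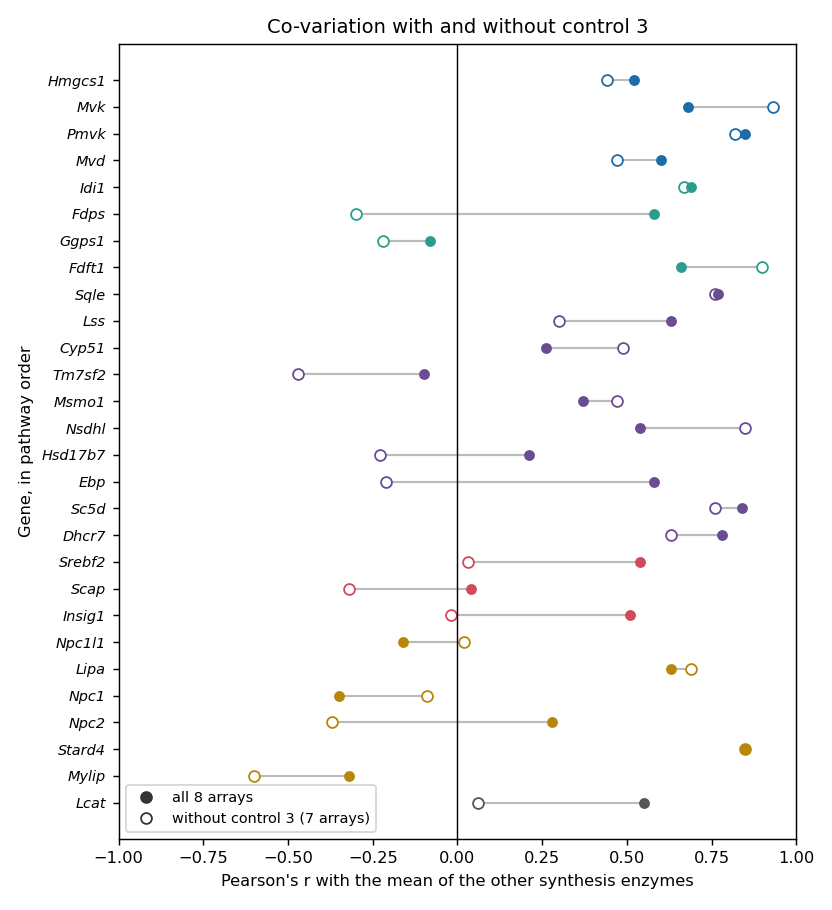
For each of the 28 genes in pathway order, the points give Pearson's r with the mean of the other synthesis enzymes over all 8 arrays and over the 7 arrays without control 3. Mvk, Fdft1 and Nsdhl lie further right without control 3, and Fdps, Ebp, Srebf2, Insig1 and Lcat lie near or below 0 without it.

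As the plot with and without control 3 shows, that array pulled the genes in both directions. Without it, r was 0.93 for Mvk, 0.90 for Fdft1 and 0.85 for Nsdhl, against 0.68, 0.66 and 0.54 with all arrays. For Fdps it was -0.30 and for Ebp -0.21 without control 3, against 0.58 for both with all arrays. Srebf2 had r = 0.54 over 8 arrays and 0.03 without control 3, and Insig1 had 0.51 and -0.02. With each group's mean subtracted, Srebf2 had r = 0.76 over all 8 arrays. Within the groups it had r = 0.99 over the 4 hydrogen water arrays and 0.65 over the 4 control arrays, too few arrays for a test. With hydrogen water 3 and control 3 left out, the arrays farthest from the median of the mean, Srebf2 had r = -0.48. Over all 8 arrays Ggps1 and Tm7sf2 did not follow the other enzymes, with r = -0.08 and -0.10. Hsd17b7 and Cyp51 followed them only weakly, with 0.21 and 0.26, or -0.23 and 0.49 without control 3.

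Outside the listed genes, those above the median level whose signals followed the mean of the synthesis enzymes most closely over the 8 arrays were Pgk1 (r = 0.98), Bub3 (0.97), Chd1l (0.97), Fbxw5 (0.96), Utp15 (0.96), Slc25a11 (0.95), Xpnpep1 (0.95) and Trim28 (0.95). The most opposite were Ube2u (-0.94), Fam107b (-0.93), Rgma (-0.93) and Ghdc (-0.92). They are the extremes of a search over the whole array, and none is a step of the pathway. Control 3 was the lowest array for every one of the closest genes and the highest array for every one of the most opposite. How far these correlations rest on that array was not tested. Pgk1, which encodes a glycolytic kinase, had 11.73, 11.77, 12.01 and 11.93 log2 signal with hydrogen water, against 12.08, 12.03, 11.62 and 11.84 in controls.

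Of 38 further genes of cholesterol handling, 29 were measured, 13 higher and 16 lower with hydrogen water, and none passed the adjusted p. At an unadjusted p under 0.05 stood 1 of the 29, against 7.17% of all genes. This was Cyp8b1, the sterol hydroxylase that sets the share of cholic acid in bile, with a difference of 0.53 (SE 0.13, limma adjusted p = 0.617). Its groups did not overlap, as in 3.76% of all genes. Its r with the mean of the synthesis enzymes was -0.18. Those that followed the enzymes most closely were Apob (r = 0.86), the core protein of secreted lipoproteins, Tmem97 (0.79), which encodes a sterol-binding receptor, and Nr1h4 (0.78), the bile acid receptor FXR. Apob spanned only 13.50 to 13.54 log2 signal over the 8 arrays, so its correlation rests on very small differences.

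A list built around fatty acid synthesis and the related factor SREBP1 held 18 genes, and all were measured. Not all of them are enzymes of fatty acid synthesis, as the list holds Srebf1 itself and Rdh11. With hydrogen water 8 were higher and 10 lower, and none passed the adjusted p. At an unadjusted p under 0.05 stood 2 of the 18, against 7.17% of all genes, and in the same 2, Acacb and Rdh11, the groups did not overlap, against 3.76% of all genes. Acacb, the mitochondrial form of acetyl-CoA carboxylase, had 9.51, 9.50, 9.80 and 9.85 log2 signal with hydrogen water, against 8.86, 9.37, 9.17 and 9.34 in controls (difference 0.48, SE 0.14, limma adjusted p = 0.631). Rdh11, a retinal reductase, had 7.74, 7.68, 7.76 and 7.79 with hydrogen water, against 8.05, 7.91, 8.06 and 7.85 log2 signal in controls, a difference of -0.23 (limma adjusted p = 0.687). The mean of these 18 genes was -0.10, -0.25, 0.20 and 0.14 with hydrogen water, against 0.13, -0.05, -0.02 and -0.04 in controls. Control 3 was the lowest array for 1 of the 18, against 8 of the 18 enzymes of cholesterol synthesis. Acss2 (r = 0.84), Elovl5 (0.74) and Srebf1 (0.67) followed the mean of the cholesterol enzymes most closely.

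Markers of other liver cells also differed between arrays. The mean of 14 of 14 Kupffer cell markers, centred per gene, spanned -0.16 to 0.56 with hydrogen water, against -0.37 to 0.13 in controls. With hydrogen water 13 of them were higher, against 48.7% of all genes. The mean of 12 of 12 sinusoidal endothelial markers spanned -0.17 to 0.45 with hydrogen water, against -0.44 to 0.07 in controls, with 11 of them higher. Hepatocyte markers, with 8 of 11 higher, spanned -0.02 to 0.09 with hydrogen water, against -0.10 to 0.02 in controls, and their lowest array was control 3. Cholangiocyte markers, 6 of 8 measured, spanned -0.31 to -0.04 with hydrogen water, against -0.20 to 0.78 in controls, with control 2 the highest. Of these 6, 1 was higher with hydrogen water. For markers of stellate, T and NK, B, neutrophil, erythroid, pancreatic acinar, fat and gut cells the list means differed by values, hydrogen water minus control, of -0.12 to 0.05. The part of any of these cells in the differences of the cholesterol genes was not tested. In pieces of whole liver, fewer cells of a type and less RNA per cell cannot be told apart.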

How the data were processed

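Liver RNA of 8 mice was measured on Affymetrix Mouse Gene 1.0 ST arrays. The deposited values are log2 signals per probe set, which the authors made in Affymetrix Expression Console, as the submitters' processing notes name it; the log2 scale was read from the values, and how background and scale were adjusted is not given in the sources used here. The values were used as deposited. Gene names came from GEO's platform annotation, with 19856 symbols updated through Entrez numbers. Of 35556 probe sets, 21789 name 1 gene, 1621 name several and 12146 are unnamed here. The 19938 genes with a probe set naming them alone were tested, each through whichever of its probe sets had the highest mean.

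Hydrogen water was set against control by the lmFit and eBayes steps of limma 3.58.1 (R 4.3.3; two-sided, Benjamini-Hochberg over all genes), which was tested on simulated data. No filter on level was used. Correlations over 8 arrays were tested by exact permutation in Python 3.11.15. Replicate numbers are shared by the groups, but deviations of same-numbered arrays did not go together, so no block was used. The genes and gene lists were chosen with earlier results of these data known. Named outside them are the 8 genes with the highest and the 4 with the lowest r with the mean of the synthesis enzymes, leaving out provisional gene models, and, in the lists of other cholesterol genes and SREBP1 genes, those at an unadjusted p under 0.05 and the 3 with the highest r. Alternatives covered normalization, the choice of probe set, a filter on dim probe sets, variance model, array weights, a replicate block and left-out arrays.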

Additional observations from a re-analysis of the deposited data

Results flagged for a closer look

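Some arrays lay far from the other 3 of their group for single genes. The measure is the gap between the extreme array and its nearest neighbour divided by the group's whole range, set against Dixon's 95% critical value for 4 arrays. It was exceeded in 7 of 112 groups checked, and chance gives about 1 in 20. Among the cholesterol genes, Fdps on control 3 had a ratio of 0.879, with a log2 signal of 7.47 against 8.28 on the nearest control array. Dhcr7 on control 3 had a ratio of 0.906, with 8.22 against 8.51. Ggps1 on control 2 had a ratio of 0.83, with 7.24 against 7.06. Lss on hydrogen water 2 had a ratio of 0.968, with 7.39 against 8.0 on the nearest hydrogen water array. Npc1l1 on hydrogen water 2 had a ratio of 0.831, with 5.69 against 5.42, and Scap on hydrogen water 4 had a ratio of 0.869, with 10.47 against 10.28. Outside the listed genes, Ube2u, the gene most opposite to the mean of the synthesis enzymes, had a ratio of 0.856 on control 3, with 7.44 against 6.51. Control 3 accounts for 3 of the 7, but Ube2u was picked for running opposite to a mean that is lowest on control 3. Its flag there follows in part from that choice and is no separate sign about the array.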

How the results depend on the processing

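None of the 28 genes passed an adjusted p of 0.05 in limma under any of the 17 alternatives, with 0.369 as the lowest adjusted p, and the unadjusted count of all genes ranged from 958 to 2069. Over all genes, 0 passed in the reported fit, 0 to 1 when single arrays were left out (1 without control 2 and 1 without control 3) and 3 when control 3 and hydrogen water 4 were both left out. The count of listed genes at an unadjusted p under 0.05, 2 in the reported fit, was 1 with probe sets of several symbols kept. It was 3 after quantile normalization and 3 with each array centred on its median. With a trended and robust variance it was 1, with array weights 4, with both arrays left out 1, and with single arrays left out 1 to 4. With the replicate block it was 2. Deviations of same-numbered arrays correlated at -0.06, 0.06, -0.03 and -0.16, so no strong shared deviation was seen. Whether same-numbered samples were handled together cannot be told from these values. The median difference of 0.007 was -0.113 with both arrays left out and -0.099 to 0.038 with single arrays left out. The median correlation between synthesis enzymes, 0.35, was 0.26 after quantile normalization, 0.27 with both arrays left out and 0.20 to 0.42 with single arrays left out. Genes at r of 0.7 or more with the mean numbered 5, but 3 after quantile normalization and 10 with both arrays left out. All 476 differences of single genes moved by less than 1 SD; 42 changed sign, in 12 genes, while 10 genes stayed lower and 6 higher throughout, including Hsd17b7 (0.29 to 0.50), Srebf2 (0.13 to 0.33) and Cyp51 (-0.43 to -0.21). The cause of these shifts was not tested. With 4 arrays a group, log2 differences near the standard error cannot be resolved.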
